A study of Rattus norvegicus with 16 samples.

Results

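The genes described here are 10 genes of the oxidative stress response and of metal buffering, measured in isolated rat islets: Hmox1, Mt2A, Slc7a11, Gclc, Gclm, Srxn1, Txnrd1, Glrx, Prdx2 and Nqo1. They were chosen by name as every probe set that the array annotation gives to 1 of these symbols alone, which finds 15 probe sets for the 10 genes, among 31099 probe sets and 14217 genes with a single-symbol probe set in the deposited table. All 10 genes passed the filter on low signal, through 14 of the 15 probe sets, and 10223 genes did in all. The probe set left out, 1 of 3 for Srxn1, read 1.1 to 19.2 on the 16 arrays. Islets came from male Wistar rats of 180 to 200 g and were held for 1 week in RPMI medium without serum, with 5 g/l bovine serum albumin and 10 mmol/l glucose. For 18 h they were then kept in the same kind of medium at 1 of 4 concentrations of glucose, 2, 5, 10 and 30 mmol/l, with 1000 islets each, and biotinylated cRNA of total RNA was hybridised to 16 Affymetrix Rat230_2 arrays, 4 per concentration. The series holds 4 experiments on different islet preparations, each taken here as the 4 arrays, 1 per concentration, that share a replicate number. The concentration of the preculture, 10 mmol/l, serves as the point of comparison for the other concentrations.

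Islet beta cells are known for low levels of several enzymes that remove hydrogen peroxide, and for raising haem oxygenase and metallothionein when stressed. The transcription factor NRF2, encoded by Nfe2l2 and held back by KEAP1, drives genes for glutathione synthesis, thiol repair and quinone reduction through the antioxidant response element, a site at which BACH1 represses, Hmox1 above all. Metallothioneins are small cysteine-rich proteins that bind zinc and copper, and the zinc-sensing factor MTF1 drives their genes through metal response elements.

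Each value below is the deposited signal intensity of 1 probe set on 1 array, on a linear scale with every array scaled by the authors to 1 trimmed mean. Signals of different genes are not compared with each other, because probe sets differ in how brightly they bind. A change is a difference of mean log2 signal over 4 arrays against 4, and a gene was called at a limma adjusted p under 0.05, with Benjamini-Hochberg adjustment over all probe sets tested. Markers of beta cells (7 of 10 with a probe set) summed to 25431 to 29618 signal units at 2 mmol/l, 29109 to 35099 at 5 mmol/l, 37279 to 48836 at 10 mmol/l and 36153 to 43298 at 30 mmol/l. Of these markers, Ins1, Ins2, Iapp, Slc2a2 and Mafa had a higher mean at 10 than at 2 mmol/l, and Pdx1 and Nkx6-1 a lower one. Pdx1 averaged 753 ± 150, 615 ± 79.6, 567 ± 137 and 446 ± 47.6 at 2, 5, 10 and 30 mmol/l (SD, n = 4 each). Nkx6-1 averaged 1278 ± 219, 1040 ± 64.3, 1148 ± 52.1 and 1014 ± 61.8. Alpha cell markers (3 of 5) summed to 7205 to 9715, 9170 to 11590, 10381 to 13936 and 10350 to 12072 in the same order of concentrations, and delta cell markers (2 of 2) to 5367 to 6308, 6660 to 7187, 8245 to 9423 and 7638 to 8614. In whole islets, fewer cells of a type and less RNA per cell cannot be told apart. The 14 macrophage and leukocyte markers, all with a probe set, summed to 510 to 630, 595 to 684, 610 to 827 and 562 to 746, with Cd163 and Itgam under 16 on all arrays. Endothelial markers (8 of 9) summed to 300 to 432, 304 to 462, 295 to 440 and 266 to 424, with Vwf under 16. Duct markers (6 of 8) summed to 3074 to 3398, 3021 to 3619, 2572 to 3086 and 2639 to 2888. Most of this sum was Krt7, at means of 1417 ± 140, 1519 ± 92.2, 976 ± 65.1 and 792 ± 34, and Krt18. Krt18 averaged 1739 ± 94.8, 1680 ± 192, 1742 ± 202 and 1866 ± 106 (SD, n = 4 each). Krt19, Cftr, Spp1 and Muc1 averaged no more than 71.7 at any concentration. Each sum mostly follows the brightest probe sets of its list, such as Gcg for alpha and Sst for delta cells. Stellate and fibroblast markers (10 of 10) summed to 1396 to 2553, 1360 to 2932, 1547 to 3999 and 1448 to 3388. Acinar markers (10 of 11) summed to no more than 143 on any array, with Amy2a3, Prss2 and Cel under 16. The 3' over 5' ratio of the Actb control probe sets was 1.76 ± 0.131, 2.04 ± 0.0835, 2.07 ± 0.136 and 2.04 ± 0.085 in the order of 2, 5, 10 and 30 mmol/l (SD, n = 4 each). For the Gapdh control probe sets it was 0.864 ± 0.0676, 0.825 ± 0.0621, 0.798 ± 0.0585 and 0.898 ± 0.0515. The part of these markers and ratios in the results on the 10 genes was not tested.

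Against 10 mmol/l, 7 of the 10 genes were called at 2 mmol/l, where 37% of all genes tested were called. Of the 7, Hmox1, Mt2A, Srxn1, Slc7a11 and Gclm rose and Glrx and Prdx2 fell; over all genes 21% rose and 16.1% fell. With the replicate number as a block in the fit the same 7 genes were called, against a background of 47.2%. At 5 mmol/l, 4 of the 10 were called against a background of 24.8%: Hmox1 and Mt2A rose, and Glrx and Prdx2 fell, while over all genes 14.2% rose and 10.6% fell. At 30 mmol/l, 4 of the 10 were called against a background of 8.62%: Hmox1, Mt2A, Slc7a11 and Srxn1 rose and none fell, while 4.29% of all genes rose and 4.32% fell. The median change of the 10 genes was 0.34, 0.23 and 0.62 at 2, 5 and 30 mmol/l on the log2 scale, beside 0.02, 0.01 and -0.04 over all genes. These 3 comparisons share the 10 mmol/l arrays. With the block, the count at 5 mmol/l became 6 (background 36%), with Srxn1 and Gclm added, and that at 30 mmol/l became 7 (background 17.7%), with Nqo1, Txnrd1 and Gclm added. Without replicate 2 in the fit the count at 30 mmol/l was 1, and without replicate 3 it was 2. Calls over all probe sets fell as well, to 2.63% without replicate 2 and 2.06% without replicate 3, against 6.82% with all arrays.

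**Figure D1:**
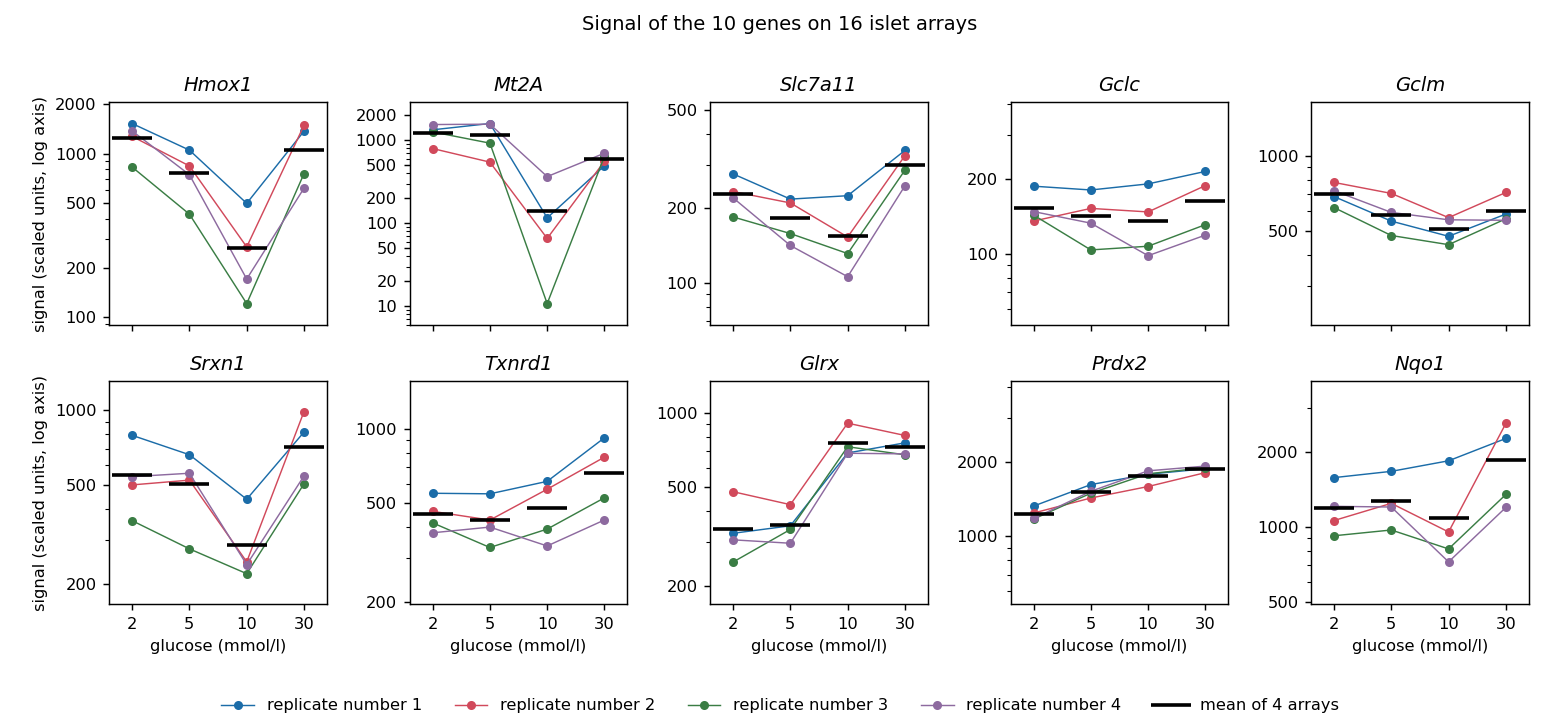
Signal intensity (log axis, scaled units) against glucose concentration for the probe set that stands for each of the 10 genes, with 1 colour per replicate number, points for single arrays and bars for the mean of 4 arrays. Hmox1, Mt2A, Srxn1 and Slc7a11 have their lowest mean at 10 mmol/l, and Glrx and Prdx2 lie low at 2 and 5 mmol/l. Replicate number 1 is the highest at all 4 concentrations for Txnrd1 and Slc7a11, and at 2, 5 and 10 mmol/l for Hmox1.

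Hmox1, the inducible haem oxygenase that splits haem into biliverdin, iron and carbon monoxide, was lowest at the preculture concentration and higher on both sides of it. Its signals in replicates 1 to 4 were 1528, 1274.5, 827.2 and 1376.1 at 2 mmol/l, 1050.1, 840.1, 425.6 and 742.2 at 5 mmol/l, 495.8, 268.2, 120.7 and 170.6 at 10 mmol/l, and 1372, 1490.1, 754 and 613.9 at 30 mmol/l. All arrays at 2 and at 30 mmol/l lay above all arrays at 10 mmol/l, while replicate 3 at 5 mmol/l lay under replicate 1 at 10 mmol/l. Means were 1251 ± 301, 764 ± 260, 264 ± 166 and 1058 ± 438 at 2, 5, 10 and 30 mmol/l (SD, n = 4 each). Hmox1 rose 5.33-fold at 2 mmol/l against 10 mmol/l, a log2 change of 2.42 ± 0.37 (SE, limma adjusted p = 6.79e-05). At 5 mmol/l the log2 change was 1.67 ± 0.37 (limma adjusted p = 0.00317), and at 30 mmol/l it was 2.11 ± 0.37 (limma adjusted p = 0.00192). Every replicate number showed each of the 3 increases: within numbers the log2 change was 1.62 to 3.01, 1.08 to 2.12 and 1.47 to 2.64 at 2, 5 and 30 mmol/l. The order of the means was 10, 5, 30 and 2 mmol/l from low to high, and the upper 3 could not be separated in the fit without the block. At 2 over 5 mmol/l the log2 change was 0.75 (95% confidence interval -0.03 to 1.53, limma adjusted p = 0.341), higher in 4 of 4 replicate numbers, and with the replicate block the limma adjusted p was 0.017. The difference of 30 over 2 mmol/l was -0.31 (-1.09 to 0.47, limma adjusted p = 0.559).

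Mt2A, a metallothionein that binds zinc and copper and also scavenges oxidants, had the widest span of the 10 genes. Replicates 1 to 4 read 1332.3, 793.2, 1258.2 and 1542 at 2 mmol/l, 1586.4, 544.3, 920.8 and 1558.6 at 5 mmol/l, 116.2, 65.7, 10.8 and 364.5 at 10 mmol/l, and 492.4, 558.6, 639.6 and 697.5 at 30 mmol/l. Every array at 2, 5 and 30 mmol/l lay above every array at 10 mmol/l, and every array at 30 mmol/l lay below every array at 2 mmol/l. The spread was widest at 10 mmol/l, where the highest array was 33.8 times the lowest, beside 1.94, 2.91 and 1.42 times at 2, 5 and 30 mmol/l. Mt2A rose 16.2-fold, 14.2-fold and 7.99-fold at 2, 5 and 30 mmol/l against 10 mmol/l. On the log2 scale these changes were 4.01 ± 0.66, 3.83 ± 0.66 and 3.0 ± 0.66 (SE), with limma adjusted p = 1.31e-04, 3.70e-04 and 0.00957. Their size rested on 2 arrays at 10 mmol/l. Without 10 mmol/l replicate 3, the array at 10.8, the folds were 8.51, 7.52 and 4.2, and without 10 mmol/l replicate 4, the array at 364.5, they were 27.5, 24.3 and 13.6. All 3 calls held in both cases, with limma adjusted p of at most 0.0109. The call at 30 mmol/l was lost when all 4 arrays of replicate 2 (limma adjusted p = 0.0769) or of replicate 3 (0.0576) were left out. Those fits had no block, and with the replicate block on all 16 arrays the limma adjusted p was 8.59e-04. At 30 over 2 mmol/l the log2 change was -1.02 (95% confidence interval -2.40 to 0.37, limma adjusted p = 0.248). It was lower in 4 of 4 replicate numbers, and fitted on these 8 arrays alone it had a limma adjusted p = 7.60e-04. Of 2 over 5 mmol/l the change was 0.18 (-1.20 to 1.57, limma adjusted p = 0.939).

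The stretch upstream of the Mt2A gene is shown because this gene changed most among the 10, next to that of Mt1, the other metallothionein gene beside it on chromosome 19 of the rat assembly GRCr8, and that of Gclm, the other called gene of the 10 whose window holds an antioxidant response element core. Each is the 250 bases before the annotated start, from RefSeq, read 5′ to 3′ on the gene's strand, at chr19:10838709-10838958 (minus strand) for Mt2A, chr19:10832976-10833225 (minus strand) for Mt1 and chr2:213031885-213032134 (plus strand) for Gclm. Capitals mark matches, on either strand, to the antioxidant response element core TGACNNNGC and to the metal response element core TGCACNC or TGCGCNC, so that a match on the opposite strand reads as its reverse complement.
Mt2A: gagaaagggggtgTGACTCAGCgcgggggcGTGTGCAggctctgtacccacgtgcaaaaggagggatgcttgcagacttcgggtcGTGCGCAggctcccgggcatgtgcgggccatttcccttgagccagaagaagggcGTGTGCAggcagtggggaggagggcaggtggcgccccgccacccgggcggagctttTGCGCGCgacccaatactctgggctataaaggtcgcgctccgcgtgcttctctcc
Mt1: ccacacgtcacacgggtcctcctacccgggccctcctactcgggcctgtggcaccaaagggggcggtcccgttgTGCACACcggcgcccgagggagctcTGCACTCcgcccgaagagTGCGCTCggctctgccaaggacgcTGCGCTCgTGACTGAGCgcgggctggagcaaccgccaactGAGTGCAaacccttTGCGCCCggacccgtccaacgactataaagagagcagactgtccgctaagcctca
Gclm: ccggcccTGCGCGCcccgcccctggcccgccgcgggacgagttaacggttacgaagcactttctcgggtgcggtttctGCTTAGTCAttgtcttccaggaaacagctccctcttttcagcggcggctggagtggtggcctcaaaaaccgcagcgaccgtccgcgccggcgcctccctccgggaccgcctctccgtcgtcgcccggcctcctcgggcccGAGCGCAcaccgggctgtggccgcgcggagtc
Mt2A holds 4 metal cores, starting 220, 165, 111 and 55 bases before the start, and 1 antioxidant core at 237 bases. Mt1 holds 6 metal cores and 1 antioxidant core, which lies 101 bases before the start and does not share a base with any of them. Gclm holds 1 antioxidant core, 172 bases before the start, and 2 metal cores. Over windows of 300 bases around 33469 rat promoters, 12.1% held the antioxidant core, 24.2% held a metal core of either form and 0.439% held at least 4 metal cores. Among the 9 members with a promoter in the same table, 3 held an antioxidant core (Mt2A, Gclm and 1 of the 2 Txnrd1 promoters) and 3 held a metal core (Mt2A, Gclm and Glrx). Slc7a11, Srxn1, Gclc, Prdx2 and Nqo1 held neither in this window. The amino acid response element core TGATGNAA, present in 3.98% of promoters, was in none of these windows. A match of letters describes the sequence and does not show that a factor binds there.

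Mt1, named after its values were seen, was read by 1 single-symbol probe set at 42.8, 59.5, 65.7 and 73.3 at 2 mmol/l, 42.7, 50.4, 43.9 and 39.2 at 5 mmol/l, 15.3, 25, 19.9 and 45 at 10 mmol/l, and 25.5, 21.1, 43.1 and 23.4 at 30 mmol/l. Arrays at 2 and 10 mmol/l overlapped only through replicate 4 at 10 mmol/l, and arrays at 30 mmol/l lay within the range seen at 10 mmol/l. Several arrays at 10 and 30 mmol/l read under 25.4, the level of the filter on low signal. Mt1 rose at 2 mmol/l against 10 mmol/l, with a log2 change of 1.29 ± 0.31 (SE, limma adjusted p = 0.00309). The change at 5 mmol/l was 0.86 ± 0.31 (limma adjusted p = 0.0527, with the replicate block 0.0296) and at 30 mmol/l 0.17 ± 0.31 (0.835). Whether Mt1 and Mt2A differed in their change at 30 mmol/l was not tested. Another probe set, annotated to Mt1 together with other symbols, read 29.9 to 896.9 at 10 mmol/l and 985 to 1442.2 at 30 mmol/l, without overlap. Which gene gave that signal was not tested. Mt3, a metallothionein known best from brain and also named after its values were seen, had lower means at the low concentrations, 105 ± 20.7, 134 ± 33.7, 188 ± 100 and 226 ± 55 signal units at 2, 5, 10 and 30 mmol/l (SD, n = 4 each). Its log2 change at 2 over 10 mmol/l was -0.72 ± 0.28 (SE, limma adjusted p = 0.0591, with the replicate block 0.00277), opposite in sign to those of Mt2A and Mt1. Mt3 rose at 30 mmol/l against 2 mmol/l by 1.10 ± 0.28 (SE, limma adjusted p = 0.00496).

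The genes of glutathione supply moved less. Slc7a11 is the cystine importer of the xCT exchanger, Gclc the catalytic and Gclm the modifier subunit of glutamate-cysteine ligase, which makes the first and limiting bond of glutathione. Slc7a11 signals in replicates 1 to 4 were 275.3, 233.6, 184.6 and 220.4 at 2 mmol/l, 217.8, 210.2, 158.2 and 141.6 at 5 mmol/l, 224.8, 153.2, 131.4 and 106 at 10 mmol/l, and 342.3, 326, 284.9 and 246.4 at 30 mmol/l. Every array at 30 mmol/l lay above every array at 5 and at 10 mmol/l, while the arrays at 2 and 10 mmol/l overlapped. Slc7a11 rose 2.01-fold at 30 mmol/l against 10 mmol/l, a log2 change of 1.01 ± 0.20 (SE, limma adjusted p = 0.00441). That call was lost without replicate 2 (limma adjusted p = 0.0567) or replicate 3 (0.0544) as a whole. At 2 mmol/l the log2 change was 0.61 ± 0.20 (limma adjusted p = 0.0233), and it was higher in 4 of 4 replicate numbers, by 0.29 to 1.06. This call was lost without 2 mmol/l replicate 1 (limma adjusted p = 0.0763) or 2 (0.0509), without 10 mmol/l replicate 3 (0.0652) or 4 (0.089), and with no filter on low signal (0.0568). It was lost as well without replicate 2, 3 or 4 as a whole (0.0936, 0.0642 and 0.109). Against 5 mmol/l, Slc7a11 rose at 30 mmol/l by 0.73 ± 0.20 (SE, limma adjusted p = 0.00841), a call lost without replicate 3 as a whole (0.0536). At 30 over 2 mmol/l the change of 0.40 (95% confidence interval -0.02 to 0.81) had a limma adjusted p = 0.129, and with the replicate block 0.00739. The order of the means was 10, 5, 2 and 30 mmol/l from low to high.

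Gclm signals in replicates 1 to 4 were 686.7, 782.8, 619.9 and 725.1 at 2 mmol/l, 546.6, 706.9, 478.3 and 592.7 at 5 mmol/l, 474.8, 564.6, 439.3 and 553.3 at 10 mmol/l, and 583.6, 713.1, 558.5 and 550.9 at 30 mmol/l. Arrays at 2 mmol/l did not overlap those at 10 mmol/l, and all other pairs of concentrations overlapped. Gclm rose 1.39-fold at 2 mmol/l against 10 mmol/l, a log2 change of 0.47 ± 0.12 (SE, limma adjusted p = 0.00552), nearly the same in each replicate number at 0.39 to 0.53. The change at 5 mmol/l was 0.19 (95% confidence interval -0.07 to 0.44, limma adjusted p = 0.304) and at 30 mmol/l 0.24 (-0.01 to 0.50, 0.269). With the replicate block both passed, with limma adjusted p = 0.0461 at 5 mmol/l and 0.0227 at 30 mmol/l, as did 2 over 5 mmol/l at 0.29 (0.0138) and 30 over 2 mmol/l at -0.23 (0.011). Gclc was not called in any comparison by the probe set that stands for it, which read 135.4 to 187.2, 103.6 to 180.7, 98.2 to 191.2 and 118.9 to 214.7 in the order of 2, 5, 10 and 30 mmol/l. Its log2 change was 0.21 (-0.25 to 0.68) at 2 mmol/l and 0.27 (-0.20 to 0.74) at 30 mmol/l against 10 mmol/l. The other Gclc probe set differed from it: it was called at 2 over 10 mmol/l, with a log2 change of 0.51 ± 0.18 (SE, limma adjusted p = 0.0381). At 5 and 30 mmol/l it changed by 0.36 ± 0.18 and 0.56 ± 0.18 (limma adjusted p = 0.168 and 0.0691, with the replicate block 0.0268 and 0.00374).

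Of the thiol repair genes, Srxn1 and Glrx moved in different directions. Srxn1 encodes sulfiredoxin, which reduces overoxidised peroxiredoxins, and its signals in replicates 1 to 4 were 793.4, 500.8, 359.3 and 540.6 at 2 mmol/l, 662.7, 523.4, 276.6 and 558 at 5 mmol/l, 438.4, 245.2, 219.7 and 239 at 10 mmol/l, and 817.8, 989.3, 505.8 and 544.3 at 30 mmol/l. At 30 mmol/l all arrays lay above all arrays at 10 mmol/l, and at 2 and 5 mmol/l replicate 3 fell within the range of 10 mmol/l. Srxn1 rose 2.51-fold at 30 mmol/l against 10 mmol/l, a log2 change of 1.33 ± 0.29 (SE, limma adjusted p = 0.00848). That call was lost without replicate 2 (limma adjusted p = 0.122) or replicate 4 (0.0549) as a whole. At 2 mmol/l Srxn1 rose by 0.94 ± 0.29 (SE, limma adjusted p = 0.0164), a call lost without 2 mmol/l replicate 1 (0.0648) or 10 mmol/l replicate 3 (0.0529) and with no filter on low signal (0.0514), and without replicate 2 (0.0741) or 4 (0.0962) as a whole. At 5 mmol/l the change was 0.81 ± 0.29 (limma adjusted p = 0.051), and with the replicate block the adjusted p was 4.49e-04. All 4 replicate numbers were higher in each of these comparisons. The other Srxn1 probe set tested gave 0.96 ± 0.27 at 2 mmol/l (limma adjusted p = 0.0112), 0.63 ± 0.27 at 5 mmol/l (0.113) and 1.19 ± 0.27 at 30 mmol/l (0.0127).

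Glrx encodes glutaredoxin, which uses glutathione to free protein thiols from mixed disulfides. In replicates 1 to 4 the signals were 326.6, 480.5, 250.1 and 307.4 at 2 mmol/l, 350.2, 426.1, 338.4 and 297.8 at 5 mmol/l, 688.5, 907.8, 729.4 and 686.6 at 10 mmol/l, and 756.3, 809.9, 676.9 and 682.8 at 30 mmol/l. The 8 arrays at 2 and 5 mmol/l lay below the 8 arrays at 10 and 30 mmol/l without overlap. Glrx fell at 2 mmol/l against 10 mmol/l by 1.17 ± 0.16 on the log2 scale, a ratio of 0.443 (limma adjusted p = 1.56e-05). At 5 mmol/l it fell by 1.09 ± 0.16 (limma adjusted p = 6.52e-05). The change at 30 over 10 mmol/l was -0.04 (95% confidence interval -0.36 to 0.29) and that of 2 over 5 mmol/l was -0.08 (-0.41 to 0.25), neither called. A second Glrx probe set changed by -1.08 ± 0.17 at 2 mmol/l and -0.95 ± 0.17 at 5 mmol/l, with limma adjusted p of at most 6.22e-04. Among the 10 genes, Glrx and Prdx2 were the 2 called at 30 over 2 mmol/l, where 42.2% of all genes were called, 17.2% higher and 25% lower at 30 mmol/l. Glrx rose by 1.14 ± 0.16 (limma adjusted p = 1.57e-05) in that comparison.

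Txnrd1, the cytosolic thioredoxin reductase, was not called in any comparison in the fit of all 16 arrays without a block. Its signals in replicates 1 to 4 were 548.3, 463.6, 416.7 and 379.9 at 2 mmol/l, 545.5, 427.6, 331.5 and 400.6 at 5 mmol/l, 612.4, 569.3, 393.2 and 336.2 at 10 mmol/l, and 918, 767, 525.8 and 428 at 30 mmol/l. By the probe set that stands for Txnrd1, the groups overlapped throughout, yet within every replicate number the array at 30 mmol/l was the highest of the 4. At 30 over 10 mmol/l the log2 change was 0.45 (95% confidence interval -0.02 to 0.92, limma adjusted p = 0.276), with values of 0.35 to 0.58 within the replicate numbers. With the replicate block the adjusted p was 0.00747, and that of 30 over 2 mmol/l was 7.91e-04 at a change of 0.49. By this probe set the largest change was at 30 over 5 mmol/l, 0.59 on the log2 scale (limma adjusted p = 0.0557, with the replicate block 2.00e-04). That change passed without a block under quantile normalization (0.0488), median centring (0.0389) and the stricter filter on low signal (0.0453), and 30 over 2 mmol/l passed with median centring (0.0497). The other Txnrd1 probe set changed by 0.48 ± 0.20 at 30 over 10 mmol/l (limma adjusted p = 0.171, with the replicate block 0.00576). At 30 over 2 mmol/l it changed by 0.48 ± 0.20 (0.0678, with the block 0.00147). Its change at 30 over 5 mmol/l was smaller, 0.44 ± 0.20 (0.11, with the block 0.00362). In replicate 4 that probe set read 354.0 at 30 mmol/l and 362.4 at 2 mmol/l, so the array at 30 mmol/l was not the highest there.

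Prdx2, a cytosolic peroxiredoxin that reduces hydrogen peroxide, had means in the order of the 4 concentrations and little spread between arrays. Replicates 1 to 4 read 1325.5, 1242.5, 1174.4 and 1181.4 at 2 mmol/l, 1618.5, 1428.9, 1493.8 and 1520.4 at 5 mmol/l, 1781.6, 1589.7, 1789.5 and 1839.2 at 10 mmol/l, and 1874.9, 1808.5, 1892.5 and 1921.7 at 30 mmol/l. Arrays at 2 mmol/l lay below all others, and those at 30 mmol/l overlapped those at 10 mmol/l alone. Prdx2 fell at 2 mmol/l against 10 mmol/l by 0.51 ± 0.07 on the log2 scale, a ratio of 0.704 (limma adjusted p = 1.21e-05). At 5 mmol/l against 10 mmol/l it fell by 0.21 ± 0.07 (limma adjusted p = 0.0313). This last call was lost without 5 mmol/l replicates 2, 3 or 4 (limma adjusted p = 0.0934, 0.0654 and 0.0587), without 10 mmol/l replicates 1, 3 or 4 (0.0685, 0.0795 and 0.0814), and with quantile normalization, where the change was -0.14 (0.117). It was lost too with eBayes without the trend (0.0757) and in a fit of only the groups compared (0.0778). Leaving out any 1 replicate number as a whole also ended it (0.0501 to 0.172). At 2 against 5 mmol/l Prdx2 was the 1 gene of the 10 called, where 3.18% of all genes were called, 1.31% higher and 1.87% lower, at a log2 change of -0.30 ± 0.07 (limma adjusted p = 0.0238). That call was lost without 2 mmol/l replicates 2 or 4 (0.067 and 0.0614) or 5 mmol/l replicates 1 or 3 (0.0795 and 0.0523), without any 1 replicate number as a whole (0.0836 to 0.16), with eBayes without the trend (0.0741) and in a fit of only the groups compared (0.0777). With the replicate block 3 of the 10 were called at 2 over 5 mmol/l (background 11.4%), Hmox1 and Gclm being added. Prdx2 had a limma adjusted p = 0.00241 in that blocked fit. Prdx2 rose at 30 mmol/l against 2 mmol/l by 0.61 ± 0.07 (limma adjusted p = 1.09e-06) and against 5 mmol/l by 0.31 ± 0.07 (0.00147). The call against 5 mmol/l was lost with quantile normalization, at 0.17 (limma adjusted p = 0.056). The change of 30 over 10 mmol/l, 0.10, had a 95% confidence interval of -0.04 to 0.24.

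Nqo1, which reduces quinones with NADPH or NADH, was not called in any comparison in the fit of all 16 arrays without a block. In replicates 1 to 4 the signals were 1579.2, 1060.3, 920.5 and 1209.8 at 2 mmol/l, 1673.9, 1243.8, 971.2 and 1202.1 at 5 mmol/l, 1846.2, 953.6, 814.7 and 722.4 at 10 mmol/l, and 2271.7, 2613.6, 1350.6 and 1197.6 at 30 mmol/l. Replicate 1 at 10 mmol/l stood above every array at 2 and 5 mmol/l, and the groups overlapped in every comparison. At 30 over 10 mmol/l the log2 change was 0.80 ± 0.27 (SE, limma adjusted p = 0.0901). All 4 replicate numbers were higher, by 0.30 to 1.45, and with the replicate block the adjusted p was 0.00169. Without 10 mmol/l replicate 1 the change was 1.09 (limma adjusted p = 0.0124). At 2 and 5 mmol/l the changes of 0.21 (95% confidence interval -0.36 to 0.79) and 0.31 (-0.27 to 0.88) were not called.

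**Figure D2:**
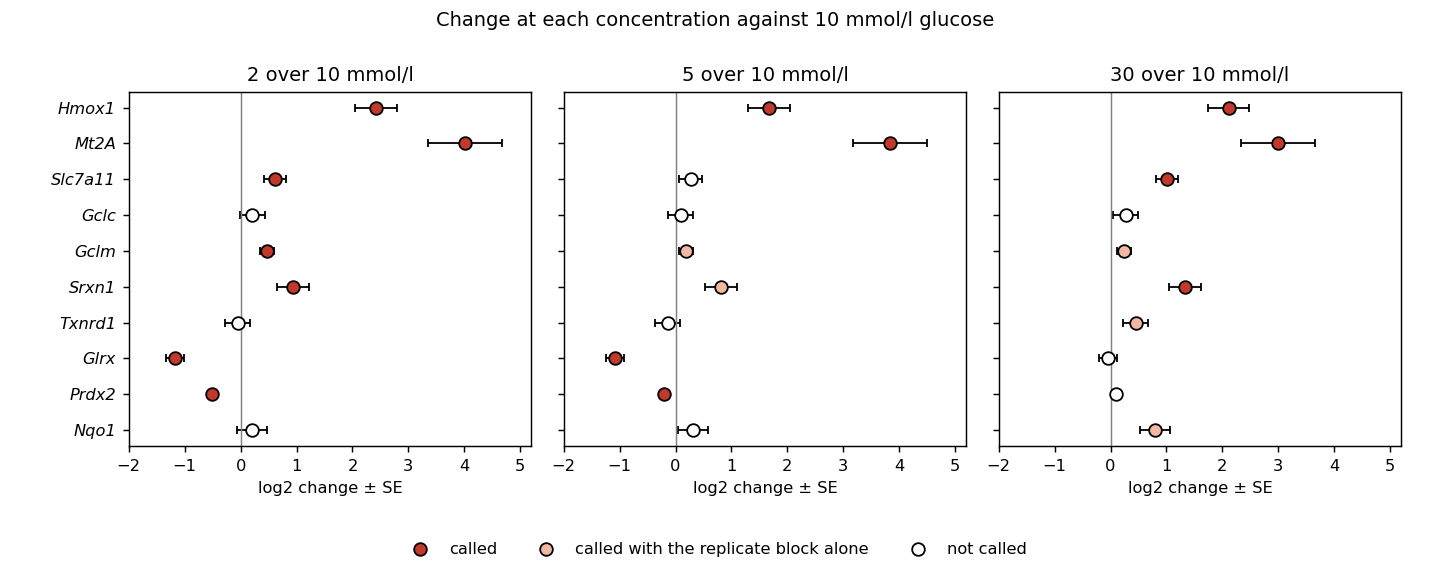
Log2 change of each gene at 2, 5 and 30 mmol/l against 10 mmol/l, with bars for the standard error of the fit without the block; filled points were called, pale points were called with the replicate block alone and open points were not called. Hmox1 and Mt2A lie to the right of 0 in all 3 panels, and Glrx and Prdx2 lie to the left at 2 and 5 mmol/l.

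Set as the mean of 2 and 30 mmol/l over the mean of 5 and 10 mmol/l, 4 of the 10 genes were called and all 4 rose, where 9.42% of all genes were called, 4.46% higher and 4.96% lower. Hmox1 rose by 1.43 ± 0.26 (SE, limma adjusted p = 0.00295), Slc7a11 by 0.67 ± 0.14 (0.00639), Srxn1 by 0.73 ± 0.20 (0.0337) and Mt2A by 1.59 ± 0.47 (0.0437). For Mt2A the means of 5 and 10 mmol/l that enter this comparison were 1153 ± 509 and 139 ± 156 (SD, n = 4 each). The Mt2A call was lost without any 1 of 11 arrays (highest limma adjusted p = 0.0885, without 5 mmol/l replicate 2), which took in all 4 at 2 mmol/l and all 4 at 30 mmol/l, 5 mmol/l replicates 2 and 3, and 10 mmol/l replicate 2. The Srxn1 call was lost without any 1 of 9 arrays (highest limma adjusted p = 0.0718, without 30 mmol/l replicate 2), namely all at 2 mmol/l except replicate 3, replicate 3 at 5 mmol/l, all at 10 mmol/l except replicate 1, and replicates 1 and 2 at 30 mmol/l. With whole replicate numbers left out, the Mt2A call was lost without replicate 1, 2 or 3 (limma adjusted p = 0.0949, 0.204 and 0.143), the Srxn1 call without replicate 2 or 4 (0.2 and 0.112) and the Slc7a11 call without replicate 2 (0.0593). Hmox1 kept its call whichever array or replicate number was left out. The Mt2A and Srxn1 calls were lost with no filter on low signal (limma adjusted p = 0.122 and 0.0932), with eBayes without the trend (0.0883 and 0.0707) and with robust eBayes (0.112 and 0.0553). With the mean of all its probe sets, among them the one left out by the filter on low signal, Srxn1 changed by 0.42 and was not called (0.0635). The other Srxn1 probe set tested was called, with a rise of 0.76 ± 0.19 (SE, limma adjusted p = 0.0209). With the replicate block 7 of the 10 were called (background 19.6%), as Gclm, Nqo1 and Txnrd1 joined.

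At 30 over 5 mmol/l, 3 of the 10 genes were called, where 34.7% of all genes were called, 14% higher and 20.6% lower: Glrx, Prdx2 and Slc7a11, all higher at 30 mmol/l. With the replicate block 6 were called there (background 43.4%), Nqo1, Srxn1 and Txnrd1 being added, and 7 at 30 over 2 mmol/l (background 51.5%). A moderated F-test over the 4 concentrations called 7 of the 10 (background 47.9%), all but Gclc, Nqo1 and Txnrd1, and 9 with the block (background 61.5%), all but Gclc. The other Gclc probe set was called in the blocked F-test (limma adjusted p = 0.00246).

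Islet preparations differed in most of these genes. In an F-test over the 4 replicate numbers with concentration in the fit, a test chosen after the values were seen, 8 of the 10 genes differed at a limma adjusted p under 0.05, where 21.7% of all genes did. Mt2A (limma adjusted p = 0.099) and Prdx2 (0.319) did not pass. For Hmox1 the mean deviations from the concentration means were 0.61, 0.27, -0.66 and -0.23 on the log2 scale for replicates 1 to 4, a span of 1.27 (limma adjusted p = 5.39e-04). The span was 1.02 for Srxn1 (8.69e-04), 0.87 for Nqo1 (0.00186), 0.74 for Txnrd1 (2.16e-04), 0.68 for Gclc (0.0023), 0.63 for Slc7a11 (0.00214), 0.46 for Glrx (0.00449) and 0.40 for Gclm (0.00286). Replicate 1 was the highest in 6 of the 8 genes, all but Gclm and Glrx, and replicate 3 the lowest in 6, all but Slc7a11 and Txnrd1. These counts are for the probe set that stands for each gene. The other Srxn1 probe set tested was highest in replicate 2, at 0.38 beside 0.24 in replicate 1. The other Glrx probe set was lowest in replicate 4, at -0.22 beside -0.14 in replicate 3. The other Gclc and Txnrd1 probe sets kept the same highest and lowest replicate. Over the 2218 genes that passed this test, replicate 1 was the highest in 33.5% and replicate 3 the lowest in 23%. Replicate 1 alone came from 1 of 2 chip lots, and replicates 2, 3 and 4 shared the other. Replicates 1 and 4 were each scanned on a day of their own, and replicates 2 and 3 shared a scan day. Preparation therefore cannot be told apart from lot and scan day for replicate 1, nor from scan day for replicate 4. Within every replicate number the fluidics module and the scan order also went with the concentration and cannot be told apart from it.

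**Figure D3:**
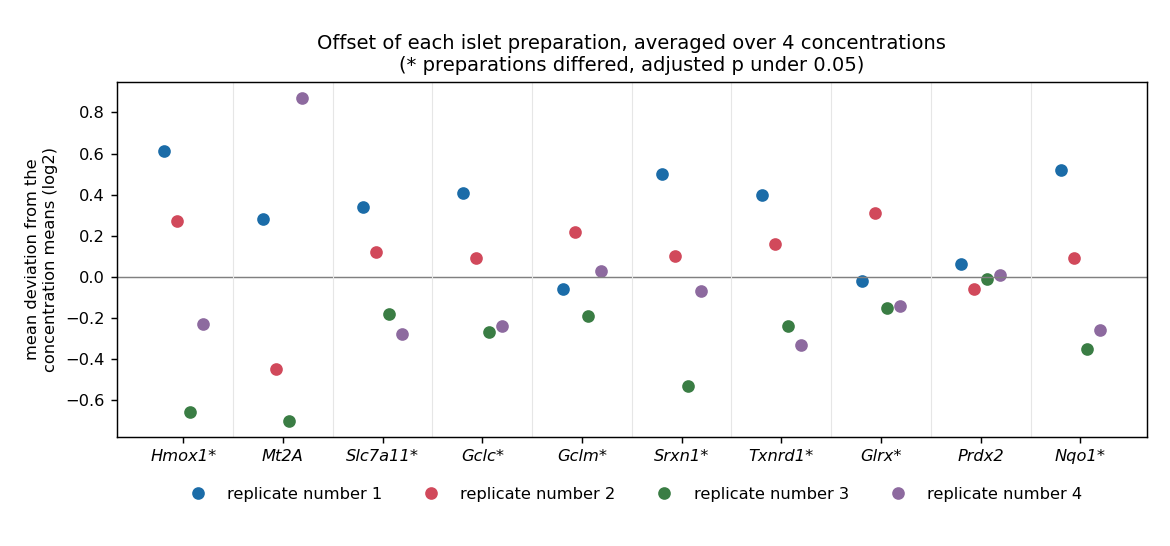
Mean deviation of each replicate number from the concentration means (log2), averaged over the 4 concentrations, for the 10 genes; an asterisk marks a limma adjusted p under 0.05 for a difference between replicate numbers. Replicate 1 lies at 0.61 and replicate 3 at -0.66 for Hmox1, while all 4 numbers lie within a span of 0.12 for Prdx2.

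Likeness of pattern was measured as the root mean square difference of log2 signal over the 16 arrays, each gene centred on its own mean, against the 10222 other genes tested. The gene nearest to Hmox1 was Srxn1, at 0.58, where the median gene was at 1.12, followed by the cationic amino acid transporter Slc7a3 at 0.61 and Angptl8 at 0.63. Mean Angptl8 signals were 612 ± 48.8, 635 ± 64.6, 205 ± 42.0 and 496 ± 41.8 at 2, 5, 10 and 30 mmol/l (SD, n = 4 each). Nearest to Mt2A were Gdf15 at 1.16, a stress-induced cytokine, the transcription factor gene Myc at 1.18 and Spetex2l2 at 1.20, with the median gene at 1.91 and Hmox1 ninth at 1.29. The rank depends on the gene it is taken from. Seen from Hmox1, Mt2A ranked 9273 of 10222 at the same 1.29, farther than the median gene at 1.12. Hmox1 ranked 752 from Srxn1, at 0.58, and 9342 from Slc7a11, at 0.76. Around Srxn1 lay Exosc2 at 0.31, the pentose phosphate enzyme gene Taldo1 at 0.32 and Nqo1 at 0.33 (median 0.71), with Slc7a11 sixth at 0.35. Slc7a11 was nearest to Odc1 at 0.16, which makes polyamines, to Ptprm at 0.23 and to Ugdh at 0.24 (median 0.56). Odc1 averaged 1884 ± 116, 1605 ± 129, 1333 ± 257 and 2457 ± 278 in the order of 2, 5, 10 and 30 mmol/l (SD, n = 4 each). The 16 arrays share 4 preparations, so differences between preparations enter these distances too.

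Beyond the 10 genes, 142 genes in 9 lists of related function were followed, 128 of them with a probe set and 109 tested. Of 9 tested genes of NRF2 and BACH1 control, 4 rose at 2 mmol/l against 10 mmol/l, 2 rose at 5 mmol/l, 1 rose at 30 mmol/l and none fell. The blocked fit called 4, 4 and 2 at 2, 5 and 30 mmol/l, beside blocked backgrounds of 47.2%, 36% and 17.7%. Nfe2l2, which encodes NRF2, averaged 1303 ± 156, 1263 ± 94.4, 873 ± 65.7 and 972 ± 80.9 at 2, 5, 10 and 30 mmol/l (SD, n = 4 each). It rose by 0.57 ± 0.09 at 2 mmol/l (limma adjusted p = 9.15e-05) and 0.53 ± 0.09 at 5 mmol/l (3.44e-04), and its change of 0.15 ± 0.09 at 30 mmol/l was not called (0.369). Keap1 changed by -0.14 ± 0.14, -0.14 ± 0.14 and -0.10 ± 0.14 at 2, 5 and 30 mmol/l, none called, and Bach1 was not among the genes tested.

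In glutathione supply and use, 23 genes were tested, of which 6 rose and 2 fell at 2 mmol/l, 4 rose and 2 fell at 5 mmol/l, and 2 rose and 1 fell at 30 mmol/l. With the block 14, 11 and 9 of the 23 were called at these concentrations. Slc3a2, the partner chain of the xCT exchanger, rose by 0.53 ± 0.07 at 2 mmol/l (limma adjusted p = 8.48e-06) and had a change of 0.09 ± 0.07 at 30 mmol/l (0.47). Gpx2, a glutathione peroxidase, fell by 0.38 ± 0.13 at 2 mmol/l (limma adjusted p = 0.0262) and rose by 0.51 ± 0.13 at 30 mmol/l (0.019). Among 18 thioredoxin, peroxiredoxin and glutaredoxin genes, 5 rose and 3 fell at 2 mmol/l, 3 rose and 2 fell at 5 mmol/l and 1 rose at 30 mmol/l, Txnip, the thioredoxin inhibitor, at 3.49 ± 0.18 (limma adjusted p = 2.24e-09). The block gave 9, 8 and 3 calls among the 18. Thioredoxin itself, Txn1, fell at 2 mmol/l by 0.53 ± 0.08 (limma adjusted p = 6.49e-05), while Glrx3 rose by 0.75 ± 0.11 (5.80e-05) and the stress gene Sesn2 by 0.80 ± 0.16 (9.58e-04). Of 7 genes of superoxide and peroxide removal, none rose and 4 fell at 2 mmol/l, 2 fell at 5 mmol/l, and 2 rose at 30 mmol/l. With the block the calls were 4, 3 and 2. The genes called at 30 mmol/l were those of the cytosolic and the mitochondrial superoxide dismutase, Sod1 at 0.23 ± 0.06 (limma adjusted p = 0.0282) and Sod2 at 0.42 ± 0.12 (0.0327), and at 2 mmol/l Sod1 fell by 0.39 ± 0.06 (7.92e-05). The extracellular form, Sod3, changed by 0.05 ± 0.21 at 30 mmol/l (limma adjusted p = 0.94) and fell by 0.74 ± 0.21 at 2 mmol/l (0.013).

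Of 13 genes of haem and iron, 1 rose and 3 fell at 2 mmol/l and none was called at 5 or 30 mmol/l, while with the block 6, 4 and 2 were called at 2, 5 and 30 mmol/l. The gene that rose without the block was Alas1, the first enzyme of haem synthesis, at 0.63 ± 0.15 (limma adjusted p = 0.00269), and Slc40a1, the iron exporter ferroportin, fell by 0.57 ± 0.20 (0.0379). Of 10 metallothionein and zinc genes, 2 rose and 1 fell at 2 mmol/l, 1 rose and 1 fell at 5 mmol/l, and 3 rose at 30 mmol/l. The block raised the number called to 6, 6 and 5. Slc30a1, the zinc exporter of the plasma membrane and a known MTF1 target, averaged 294 ± 40, 223 ± 33.7, 112 ± 20.5 and 142 ± 16.4 in the order of 2, 5, 10 and 30 mmol/l (SD, n = 4 each). It rose by 1.40 ± 0.15 at 2 mmol/l (limma adjusted p = 1.50e-06) and 1.00 ± 0.15 at 5 mmol/l (9.25e-05), and the change of 0.36 ± 0.15 at 30 mmol/l had an adjusted p of 0.174, with the replicate block 0.0191. The 3 that rose at 30 mmol/l were the zinc transporter genes Slc39a6, at 0.97 ± 0.11 (3.19e-05), Slc30a5, at 0.39 ± 0.11 (0.0362), and Slc39a7, at 0.36 ± 0.09 (0.0244). Mtf1 changed by -0.50 ± 0.24, -0.48 ± 0.24 and -0.31 ± 0.24 at 2, 5 and 30 mmol/l, none called without the block (limma adjusted p = 0.129, 0.182 and 0.534). The blocked fit called it lower at 2 mmol/l (0.00222) and 5 mmol/l (0.00462) but not at 30 mmol/l (0.0864).

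Among 16 other NRF2 target genes, 2 rose and 5 fell at 2 mmol/l, 3 rose and 2 fell at 5 mmol/l, and 4 rose at 30 mmol/l. With the block 9, 7 and 7 were called. Tkt, a transketolase of the pentose phosphate pathway, rose at 30 mmol/l by 0.76 ± 0.11 (limma adjusted p = 2.81e-04) and Cbr1, a carbonyl reductase, by 0.44 ± 0.08 (0.0037), whereas at 2 mmol/l Cbr1 fell by 0.57 ± 0.08 (4.65e-05). The 2 tested genes of NADPH oxidase and other oxidant sources, Cyba and Xdh, were not called at any concentration against 10 mmol/l, with or without the block. At 30 over 2 mmol/l Xdh was higher by 1.17 ± 0.41 (limma adjusted p = 0.0324), and at 30 over 5 mmol/l by 0.87 ± 0.41 (0.124, with the replicate block 0.0272). Of 11 heat shock factor targets, 2 rose and 1 fell at 2 mmol/l, 1 rose and 1 fell at 5 mmol/l and none was called at 30 mmol/l, against 6, 4 and 1 called with the block. The counts of all lists without the block stand beside backgrounds of 37%, 24.8% and 8.62% at 2, 5 and 30 mmol/l.

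**Figure D4:**
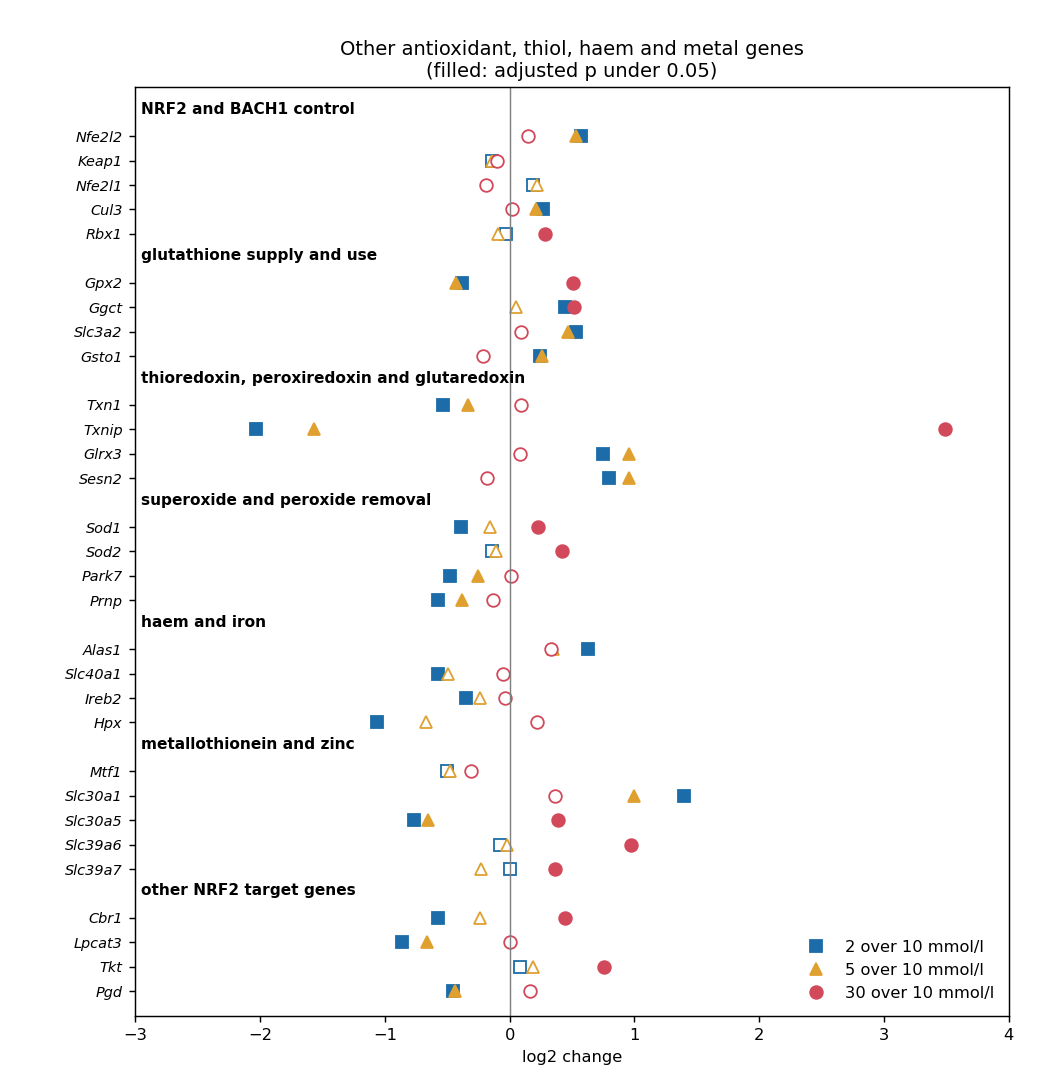
Log2 change at 2, 5 and 30 mmol/l against 10 mmol/l for named genes of 7 of the lists, with filled symbols for a limma adjusted p under 0.05. Slc30a1 lies at 1.40 at 2 mmol/l and 1.00 at 5 mmol/l, and Nfe2l2 at 0.57 and 0.53, while both are open at 30 mmol/l.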

How the data were processed

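RNA of rat islets at 4 glucose concentrations was measured on 16 Rat230_2 arrays. The deposited values are linear signal intensities per probe set, produced by the authors in GCOS (per the submitters' processing notes), whose version and settings are not given in the sources used here. After trimming 2% at each end the mean of every array lay between 150.042 and 150.051, which shows a scaling of each array. Fluidics module, scan day, scan time and chip lot were read from the deposited scanner text files.

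Values under 3.4, the 10th percentile, were raised to 3.4 and log2 transformed. Tests covered 18625 of 31099 probe sets, the upper 60% by mean log2 value, equal to a signal of at least 25.4. A single symbol was annotated for 20826 probe sets, several for 436 and none for 9780, and 57 were controls. Where a gene had several single-symbol probe sets, the brightest on average was used.

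The comparisons used lmFit and eBayes of limma 3.58.1 (R 4.3.3) on all 16 arrays, with a trend of variance on mean and 12 residual degrees of freedom. Tests were two-sided, and p-values were adjusted by Benjamini-Hochberg over every tested probe set. The blocked fit added the replicate number and left 9 residual degrees of freedom. Pairing by number was checked, since the design text gives 4 experiments on different islet preparations. After removal of group means, the 24 pairs of arrays with equal number had correlations of 0.136 to 0.434 and the other 72 pairs of -0.264 to 0.130, and each of the 16 arrays was most like one of its own number. The number of arrays, 4 per group, limits the precision. The fit without the block was tested on simulated data with known changes and with independent noise on each array. That simulation held no differences between preparations, so it cannot show how the fit behaves with them.

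The 10 genes, the 9 gene lists and the 8 marker lists were chosen with earlier results of these data known. Named genes are the 10, up to 4 tested genes per list with the smallest F-test p, Nfe2l2, Keap1, Bach1 and Mtf1, and the 3 nearest patterns to Hmox1, Mt2A, Srxn1 and Slc7a11. Alternatives were other scalings, filters, floors, an added constant of 50, eBayes settings, probe set averaging, blocks, a stricter threshold, fits of the compared groups alone and leaving out arrays. Promoter sequences are RefSeq's, assembly GRCr8.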

Additional observations from a re-analysis of the deposited data

Results flagged for a closer look

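In 56 groups of 4 arrays of the 14 tested probe sets, 1 array stood apart from the other 3 by Dixon's criterion, where chance gives about 1 in 20. It was replicate 1 at 10 mmol/l for Srxn1, at a signal of 438.4, beside 245.2, 219.7 and 239 on the other arrays at 10 mmol/l. On the log2 scale the gap to the nearest array took up 0.841 of the group's range, above the 95% critical value.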

How the results depend on the processing

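No change of sign was seen in a called value for any of the 10 genes, in 900 comparisons with other settings and 1400 with an array or a replicate number left out. With other settings 845 kept their side of the threshold, 34 gained a call and 21 lost it, and with arrays or numbers left out 1316 kept it, 22 gained and 62 lost it. With the replicate number as a block, the paired analysis, the count of the 10 genes called was 7 at 30 over 10 mmol/l, 3 at 2 over 5 mmol/l, 7 at 30 over 2 mmol/l, 6 at 30 over 5 mmol/l and 7 for the mean of 2 and 30 over that of 5 and 10 mmol/l. The block ended no call of the 10 genes. At 2 over 5 mmol/l the count was 0 with eBayes without the trend, at an adjusted p under 0.01 and with only the groups compared. At 30 over 2 mmol/l it was 5 with scan day as a block and 4 with only the groups compared. For the mean of 2 and 30 over that of 5 and 10 mmol/l it was 2 with no filter, with eBayes without the trend, with robust eBayes and at an adjusted p under 0.01. Leaving out arrays or replicate numbers gave counts of 5 to 7 at 2 over 10 mmol/l, 3 to 5 at 5 over 10 mmol/l, 1 to 5 at 30 over 10 mmol/l, 0 to 1 at 2 over 5 mmol/l, 2 to 4 at 30 over 2 mmol/l, 2 to 4 at 30 over 5 mmol/l, 1 to 4 for the mean of 2 and 30 over that of 5 and 10 mmol/l and 6 to 9 in the F-test. Mt2A changes against 10 mmol/l were 3.07, 2.90 and 2.11 at 2, 5 and 30 mmol/l with 50 added to each signal. The cause of these shifts was not tested.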

Other observations

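A probe set chosen after its values were seen is given by the annotation to the symbols Mt1f, Ttr and Mt1 together, so no gene is named for it and it enters no count of the 10 genes. Its signals in replicates 1 to 4 were 4731.9, 2858.3, 4725.7 and 5124.3 at 2 mmol/l, 5451, 2043.8, 3527.3 and 4043.9 at 5 mmol/l, 199.4, 69.6, 29.9 and 896.9 at 10 mmol/l, and 1255.7, 985, 1321.4 and 1442.2 at 30 mmol/l. Every array at 2, 5 and 30 mmol/l lay above every array at 10 mmol/l. At 10 mmol/l replicate 4 was the highest and replicate 3 the lowest, as for Mt2A.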
